A study of Mus musculus with 24 samples.

Results

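The genes described here are 9 members of the transforming growth factor beta (TGF-beta) pathway, out of 49315 genes counted in primary mouse astrocytes after X-ray exposure. They are the ligands Tgfb1, Tgfb2 and Tgfb3, the latency protein gene Ltbp1, the receptors Tgfbr1 and Tgfbr2, the transducer Smad3 and the feedback inhibitors Smad7 and Skil. They were chosen by name and role. The rule uses no measured value, though the choice was made with earlier results of these data known, and all 9 passed the filter on low counts in each comparison.

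Astrocytes were isolated from the cortex of late wild-type C57BL/6J embryos, the cells of all embryos of a pregnant mouse being pooled, and were seeded at the first passage 3 days before exposure. They received 0.1 Gy or 2 Gy X-rays or were mock-irradiated (0 Gy), and poly(A) RNA was sequenced 6 h or 24 h later, with 4 libraries in each of the 6 groups. These groups ask how the transcripts of cultured astrocytes respond to a low and a moderate dose, early and after a day. The model is a primary culture that can hold other brain cells. Fewer cells of a type and less RNA per cell cannot be told apart in such bulk RNA.

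TGF-beta ligands are secreted in a latent complex, in which the propeptide holds the dimer inactive and a latent TGF-beta binding protein such as the product of Ltbp1 ties it to the matrix. Once released by integrins or other activators, the dimer assembles type II receptors (Tgfbr2) with type I receptors (Tgfbr1), which phosphorylate Smad2 and Smad3, and these enter the nucleus with Smad4. Smad7 and Skil are induced by the pathway and restrain it. In the brain, TGF-beta is known for its part in astrocyte reactivity and scar formation and for keeping microglia in their mature state.

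The promoters of Tgfb1, Tgfbr1 and Tgfbr2 are shown because these 3 genes were lowest together in one set of libraries, described next. Each run is the 250 bases before the annotated start, in the direction of transcription, from RefSeq on GRCm38.p6. The windows are chr7:25686752-25687001 on the plus strand for Tgfb1, chr4:47352972-47353221 on the plus strand for Tgfbr1 and chr9:116175364-116175613 on the minus strand for Tgfbr2, and none of their bases lies in an annotated exon. Capitals mark a match to GAGGAA, the core bound by the myeloid factor PU.1.
Tgfb1: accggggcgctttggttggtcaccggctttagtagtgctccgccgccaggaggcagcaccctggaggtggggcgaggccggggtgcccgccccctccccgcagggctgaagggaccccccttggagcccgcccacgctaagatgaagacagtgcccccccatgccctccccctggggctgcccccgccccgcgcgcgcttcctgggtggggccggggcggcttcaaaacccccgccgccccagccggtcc
Tgfbr1: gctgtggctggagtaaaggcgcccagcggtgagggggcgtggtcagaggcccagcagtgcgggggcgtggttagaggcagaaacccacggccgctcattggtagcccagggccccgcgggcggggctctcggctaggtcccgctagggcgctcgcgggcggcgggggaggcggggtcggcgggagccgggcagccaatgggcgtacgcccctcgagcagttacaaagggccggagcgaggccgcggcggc
Tgfbr2: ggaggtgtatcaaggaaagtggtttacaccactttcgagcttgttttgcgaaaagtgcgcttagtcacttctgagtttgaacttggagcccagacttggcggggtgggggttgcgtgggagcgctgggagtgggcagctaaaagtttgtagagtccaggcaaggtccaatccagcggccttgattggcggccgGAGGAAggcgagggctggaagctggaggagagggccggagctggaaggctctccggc
GAGGAA occurred once in the Tgfbr2 window, 57 bases before the start, and in neither of the other windows shown. For Tgfbr1 only the first listed of its 2 promoters is shown, so this says nothing about the other. The table holds 8 promoters of 6 members, with 2 each for Tgfbr1 and Ltbp1, and 4 of the 8 hold this core and 3 the Smad-binding box. The 3 motifs searched, on both strands, were this core, the Smad-binding box CAGACA and the AP-1 site TGANTCA, and no match to either of the last was found in the 3 windows shown. Among 32851 promoter windows of this length, 23.3% hold the PU.1 core, 17.1% the Smad-binding box and 6.75% the AP-1 site. The Tgfb1 and Tgfbr1 windows were rich in G and C, at 75.2% and 74.8%, against 58.4% for Tgfbr2.

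Total counts per library were between 14742855 and 38194800, with a median of 24829888.5, and each member had at least 324 counts in every library. Levels are given as library-scaled CPM (counts divided by the library total after TMM scaling), and levels of different members are ranked only per kilobase of exon. Marker levels are given in CPM as ranges over libraries and not ranked between genes. The astrocyte marker Gfap was at 343.5 to 797.6 CPM. The defining markers of endothelial cells (Pecam1, 0.27 to 1.47 CPM), neurons (Rbfox3, 0 to 0.888), fibroblasts (Dcn, 0.147 to 4.35) and the oligodendrocyte lineage (Sox10, 0.194 to 2.81) were at or below a few CPM. The sum over each of these marker lists was larger, reaching 804.3 CPM for the oligodendrocyte lineage, 725.7 CPM for neurons and 721.7 CPM for fibroblasts and vessels. Olig1, named here after its value was seen, was at 70.04 to 248.7 CPM per kilobase of exon, a unit other than that of the sums. Microglial markers were present in all libraries, with Cx3cr1 at 33.7 to 338.2 CPM and Aif1 at 2.01 to 37.2 CPM.

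The libraries that carry the replicate number 2 stood apart, at both times and at every dose. The sum of 12 microglial markers was 252.8 to 309.2 CPM in these 6 libraries and 1688 to 3035 CPM in the other 18, and each of the 12 markers was lower in all 6 than in any of the 18. Astrocyte markers summed to 2591 to 3268 CPM in the 6 and 2962 to 3692 CPM in the others, the 6 markers of neurons to 592.3 to 725.7 CPM against 399.6 to 579.9 CPM, and the 6 of the oligodendrocyte lineage to 552.8 to 804.3 CPM against 284.4 to 608.7 CPM. Because of this, each dose or time comparison below was also run with these libraries left out, an alternative chosen after the data were seen.

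**Figure D1:**
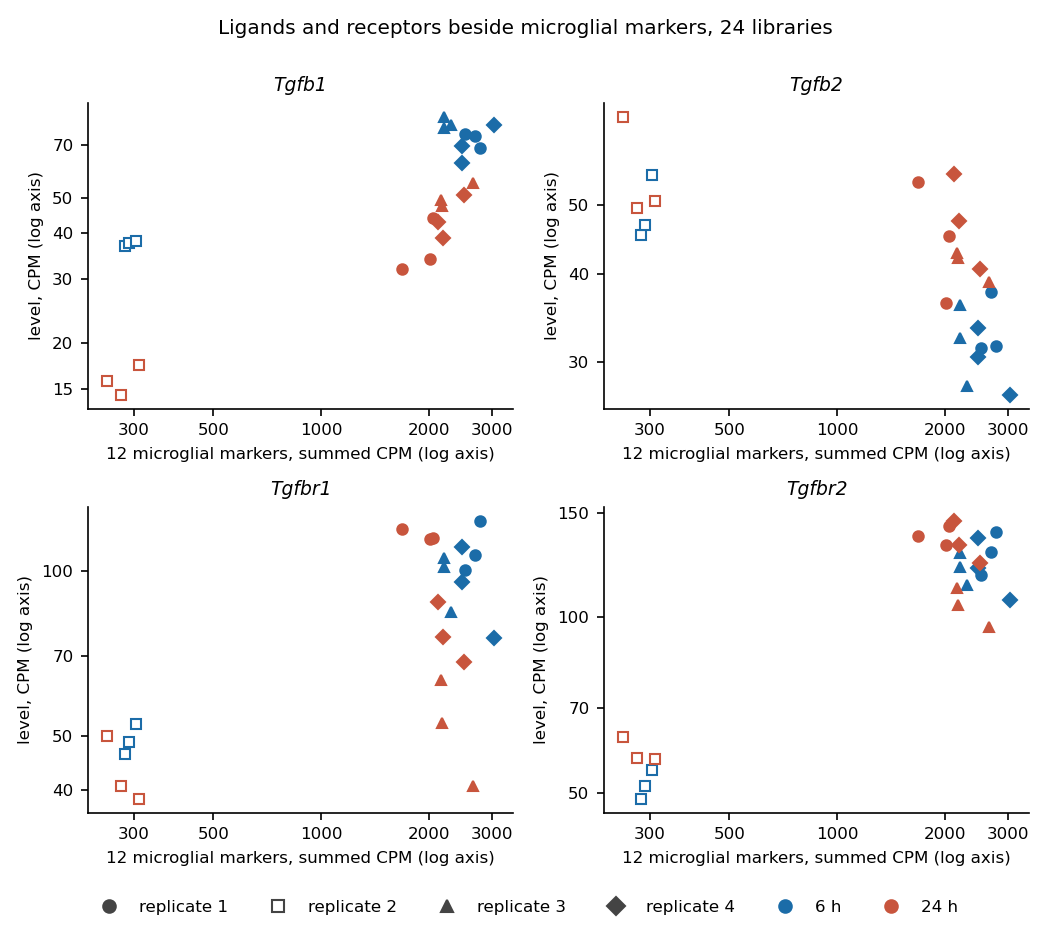
Levels of Tgfb1, Tgfbr1, Tgfbr2 and Tgfb2 (CPM, log y axes) against the summed level of 12 microglial markers (CPM, log x axes), with 1 point for each of the 24 libraries, shaped by replicate number and coloured by time. The 6 libraries of replicate 2 lie at the far left, at 252.8 to 309.2 CPM on the x axis, where Tgfbr2 was 48.95 to 62.44 CPM against 96.04 to 145.6 CPM in the other 18.

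Both receptor genes and Tgfb1 were low in these libraries, Tgfb2 was high, and Tgfb3 went neither way. Tgfbr2, which encodes the ligand-binding type II receptor, was 48.95 to 62.44 CPM in the 6 libraries of replicate 2 and 96.04 to 145.6 CPM in the other 18, with no overlap. Tgfbr1 was 38.54 to 52.64 CPM against 40.67 to 123.2 CPM, and Tgfb1 was 14.46 to 38.16 CPM against 31.94 to 83.27 CPM. Replicate 2 was the lowest library of its group for these 3 genes in 6 of 6 groups. Tgfb2 went the other way, at 45.27 to 66.45 CPM against 27.0 to 55.3 CPM, and replicate 2 was its highest library in 6 of 6 groups. For Tgfb3 replicate 2 was lowest in 2 groups and highest in 3. Smad3, Smad7 and Ltbp1 were highest in replicate 2 in 4 of 6 groups each. Within the 18 libraries without replicate 2 the pattern did not continue for the receptors. There Pearson's r of log2 levels with the summed microglial markers was -0.39 for Tgfbr2 and -0.23 for Tgfbr1. It was 0.70 for Tgfb1 and -0.665 for Tgfb2, and -0.53, 0.41 and -0.18 for Smad3, Smad7 and Ltbp1. These values are a description, since these libraries share numbers and times. The part of the microglial cells in these differences was not tested.

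Per kilobase of exon, the order of the members differed between the times. Over the 12 libraries at 6 h, Smad7 had the highest mean level, 21.3 ± 4.20 CPM per kilobase (SD), followed by Tgfb3 at 18.65 ± 2.93 and Skil at 17.6 ± 2.78. These 3 were within 1 SD of their neighbours in that order. Smad3, Tgfbr1, Tgfb1 and Tgfbr2 followed at 13.75 to 12.9 CPM per kilobase, also within 1 SD of one another, and Ltbp1 (8.51 ± 1.39) and Tgfb2 (6.26 ± 1.48) were lowest. Over the 12 libraries at 24 h, Tgfb3 stood above the rest at 37.8 ± 7.87 CPM per kilobase. Its lowest library, 27.8, was above the highest library of every other member. Smad3 (13.8 ± 1.38), Skil (13.6 ± 4.89), Tgfbr2 (13.3 ± 4.09), Tgfbr1 (11.0 ± 4.63) and Smad7 (10.7 ± 3.47) came next and overlapped, and Tgfb2, Tgfb1 and Ltbp1 were lowest at 8.19 to 7.13. Over all 24 libraries, Tgfb3 had a higher mean level per kilobase than 89.4% of the 17353 genes that passed the filter, and Tgfb2 than 62.7%.

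**Figure D2:**
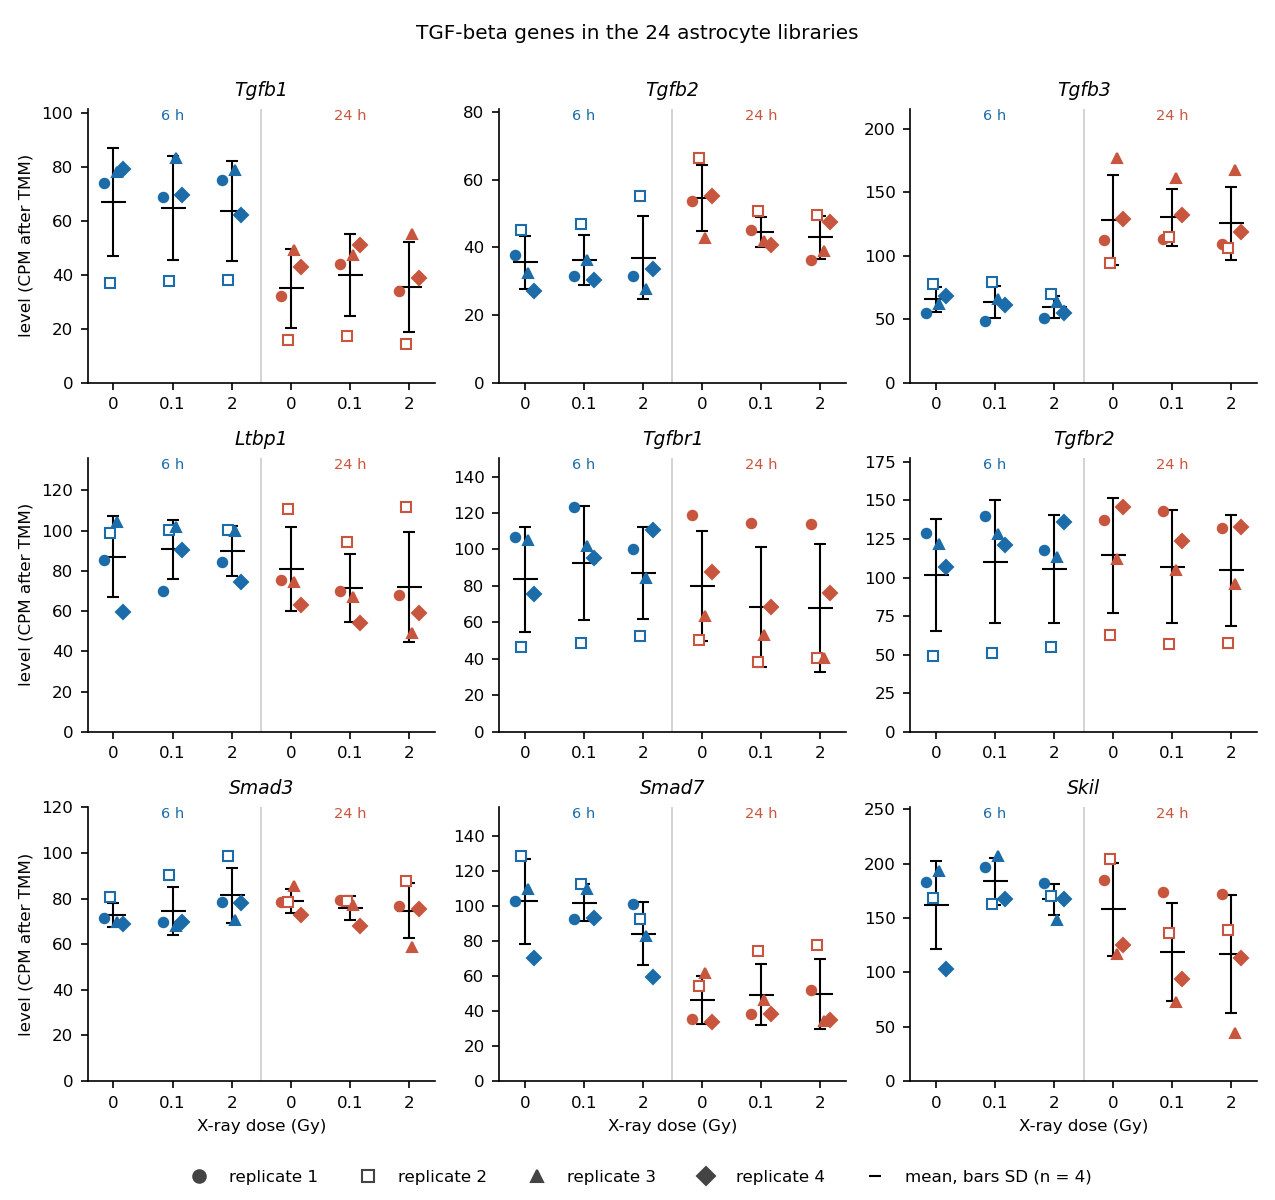
Level of each of the 9 members (CPM, y axes) in every library, with 1 point per library, grouped by X-ray dose in Gy (x axes) and by time after exposure, and with the mean and SD of each group of 4. The 12 libraries of Tgfb3 at 24 h lie between 94.08 and 177.0 CPM, all above the 12 at 6 h, at 48.86 to 79.37 CPM.

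The comparison of 24 h with 6 h in mock-irradiated cells asks what changes in these cultures without radiation. Tgfb3 rose and Smad7 fell, and these were the 2 of 9 members called at an adjusted p under 0.05 (edgeR quasi-likelihood test, Benjamini-Hochberg), against 6.7% of the 15887 genes tested. Their groups were also the 2 among the members that did not overlap, against 15.3% of all genes. Time after mock exposure, time since seeding and the handling of the harvest cannot be told apart here. The members' median log2 fold change was -0.05, against -0.02 over all genes.

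Tgfb3, the ligand gene with the highest level per kilobase, was 54.49, 77.92, 62.09 and 68.51 CPM at 6 h in replicates 1 to 4, and 112.7, 94.08, 177.0 and 129.0 CPM at 24 h. All 4 libraries at 24 h were higher than all 4 at 6 h. The log2 fold change was 0.95 ± 0.20 (SE, n = 4 and 4), a 1.93-fold rise, with an edgeR adjusted p of 0.0271. It was 1.01 ± 0.17 at 0.1 Gy (edgeR adjusted p = 0.0104), where the levels went from 48.86, 79.37, 65.71 and 60.84 CPM to 113.1, 114.5, 161.4 and 132.4 CPM. At 2 Gy it was 1.06 ± 0.18 (edgeR adjusted p = 0.0132), from 50.82, 70.20, 63.78 and 54.53 CPM to 109.4, 106.4, 167.5 and 118.6 CPM. At no dose did the groups of Tgfb3 at 24 h and 6 h overlap. Exons of Tgfb3 (chr12:86056744-86079041, minus strand, GRCm38) share 163 bases with those of the genes Ttll5 and Gm37804 on the other strand, and whether the counting used strand is not given in the sources used here.

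Smad7 (chr18:75367529-75395935, plus strand), whose product blocks the receptor's access to the receptor-regulated Smads, moved in the opposite direction. In mock-irradiated cells it was 102.8, 128.4, 109.7 and 70.08 CPM at 6 h and 35.41, 54.15, 61.63 and 34.03 CPM at 24 h. The groups did not overlap, and the log2 fold change was -1.17 ± 0.25 (edgeR adjusted p = 0.0268). At 0.1 Gy it was -1.06 ± 0.22 (edgeR adjusted p = 0.0212), from 92.60, 112.4, 109.7 and 93.33 CPM to 38.52, 74.61, 46.35 and 38.11 CPM, again without overlap. At 2 Gy Smad7 did not pass the test, at -0.77 ± 0.29 (edgeR adjusted p = 0.147), from 101.2, 92.87, 82.71 and 59.66 CPM to 51.98, 77.55, 34.59 and 35.09 CPM. There the groups overlapped through replicate 2 at 24 h and replicate 4 at 6 h, while Smad7 was lower at 24 h in all 4 pairs. With the replicate block it passed, at -0.82 (edgeR adjusted p = 0.0136), as it did when replicate 2 was left out (adjusted p = 0.049). The difference between the time effects at 2 Gy and 0 Gy, 0.41 ± 0.39, had an edgeR adjusted p of 0.840.

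The calls at 0 Gy lay near the threshold and were lost when any of several single libraries was left out. Without 1 of the libraries 6 h replicates 1, 3 and 4 or 24 h replicates 1 and 4, the Tgfb3 call was lost (adjusted p 0.0605 to 0.104), and without 1 of 6 h replicates 1, 2 and 3 or 24 h replicates 1 and 4, the Smad7 call was lost (0.0533 to 0.0984). The fold changes kept their sign in each of these runs, at 0.89 to 1.02 for Tgfb3 and -1.15 to -1.02 for Smad7. Smad7 at 0.1 Gy lost its call without 1 of the libraries 6 h replicates 1 and 3 or 24 h replicates 3 and 4, and Tgfb3 at 2 Gy without 6 h replicate 1.

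Tgfb1 (chr7:25687002-25705077, plus strand), the ligand gene most tied to inflammation, had a lower mean level at 24 h at each dose but did not pass the unpaired test. At 0 Gy it was 73.83, 36.91, 77.89 and 79.19 CPM at 6 h and 31.94, 15.75, 49.28 and 42.86 CPM at 24 h. Replicate 2 at 6 h lay within the range of the 24 h libraries, so that the groups overlapped, whereas the other 3 at 6 h were above all at 24 h. The log2 fold change was -0.95 ± 0.35 (edgeR adjusted p = 0.136), and without replicate 2 the adjusted p was 0.0217. With the replicate block it was -1.01 (edgeR adjusted p = 0.00337), though at 0 Gy the numbers were not taken as pairs. At 0.1 Gy Tgfb1 went from 68.69, 37.64, 83.27 and 69.46 CPM to 44.01, 17.39, 47.39 and 50.91 CPM, and at 2 Gy from 75.03, 38.16, 78.94 and 62.29 CPM to 33.93, 14.46, 55.04 and 38.80 CPM. At both doses each of the 4 pairs was lower at 24 h. These were log2 differences of -0.72 ± 0.34 and -0.86 ± 0.37 (edgeR adjusted p = 0.212 and 0.210). With the replicate block they passed, at -0.77 (edgeR adjusted p = 0.0022) and -0.94 (adjusted p = 0.00695), and without replicate 2 the adjusted p was 0.0136 and 0.0602.

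The microglial markers were followed beside Tgfb1. Between 24 h and 6 h, 6.7%, 9.9% and 6.95% of all genes were called in the unpaired fit at 0, 0.1 and 2 Gy. With the replicate block it was 25.7% at 0.1 Gy and 19.2% at 2 Gy. None of the 12 microglial markers was called unpaired at any dose, and with the block 1 was called lower at 0.1 Gy and none at 2 Gy. Their unpaired median log2 fold change was -0.42, -0.17 and -0.10 at 0, 0.1 and 2 Gy, and their sum had a median of 2389 CPM at 6 h (282.7 to 3035) and 2092 CPM at 24 h (252.8 to 2657). Their part in the lower level of Tgfb1 was not tested. The markers of fibroblasts and vessels had unpaired medians of -0.45, -0.44 and -0.57 with none called, and with the block 2 were called lower at 0.1 Gy and 3 at 2 Gy. Among the other markers, 1 of astrocytes was called higher at 0.1 Gy and 1 at 2 Gy and 1 of neurons at 0.1 Gy in the unpaired fit, and with the block 2 of the oligodendrocyte lineage were called higher and 1 lower, 1 of astrocytes higher and 1 lower, and 1 of neurons higher at each of these doses. The median of the summed markers went from 370 CPM at 6 h to 556 CPM at 24 h for the oligodendrocyte lineage, from 435.9 to 521 CPM for neurons and from 3303 to 3542 CPM for astrocytes, and the part of these cells in the higher levels of Tgfb3 was not tested.

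Tgfb2 (chr1:186622792-186705989, minus strand), the third ligand gene, was 37.63, 45.27, 32.45 and 27.00 CPM at 6 h and 53.74, 66.45, 42.70 and 55.30 CPM at 24 h in mock-irradiated cells. The groups overlapped through replicate 2 at 6 h and replicate 3 at 24 h, and the log2 difference was 0.60 ± 0.20 (edgeR adjusted p = 0.102). With the replicate block it was 0.61 (edgeR adjusted p = 0.0318), though at 0 Gy the numbers were not taken as pairs. At 0.1 Gy and 2 Gy the differences were 0.28 ± 0.16 and 0.21 ± 0.23 and did not pass. Exons of Gm26169 and Gm29491 on the other strand share 124 bases with those of Tgfb2.

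The receptor gene Tgfbr2 (chr9:116084293-116175360, minus strand) was 128.9, 48.95, 121.5 and 106.8 CPM at 6 h in mock-irradiated cells and 137.4, 62.44, 112.1 and 145.6 CPM at 24 h. The spread between its replicates was wider than any difference between groups. Smad3 (chr9:63646767-63757994, minus strand), by contrast, was narrow, at 68.15 to 98.53 CPM in the 12 libraries at 6 h and 58.63 to 87.9 CPM in the 12 at 24 h, and the highest library at either time was one of replicate 2 after 2 Gy. Ltbp1 (chr17:75005568-75392512, plus strand) was 59.44 to 104.3 CPM at 6 h and 49.34 to 111.7 CPM at 24 h. Skil was 103.1 to 206.7 CPM at 6 h and 44.25 to 204.0 CPM at 24 h, the lowest library being replicate 3 after 2 Gy. The times overlapped for each of these 4 genes.

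Between 24 h and 6 h at 0.1 Gy, 2 of 9 members were called, against 9.9% of 16250 genes, and the same 2 did not overlap, against 19% of genes. At 2 Gy 1 of 9 was called, against 6.95% of 16002 genes, and 1 did not overlap, against 18.1%. With the replicate block, 5 members were called at 0.1 Gy, against 25.7% of genes, and 3 at 2 Gy, against 19.2%. Besides Tgfb1, Tgfb3 and Smad7, the 5 at 0.1 Gy were Tgfbr1, at -0.49 ± 0.14 (adjusted p = 0.0287), and Skil, at -0.71 ± 0.20 (adjusted p = 0.0237). Both were lower at 24 h in 4 of 4 pairs. These 2 comparisons were added after the data were seen. Smad3, the transducer, had log2 differences of 0.10, 0.01 and -0.13 at the 3 doses, Tgfbr2 of 0.16, -0.06 and -0.02, and Ltbp1 of -0.12, -0.37 and -0.33, and none of these passed with or without the block.

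**Figure D3:**
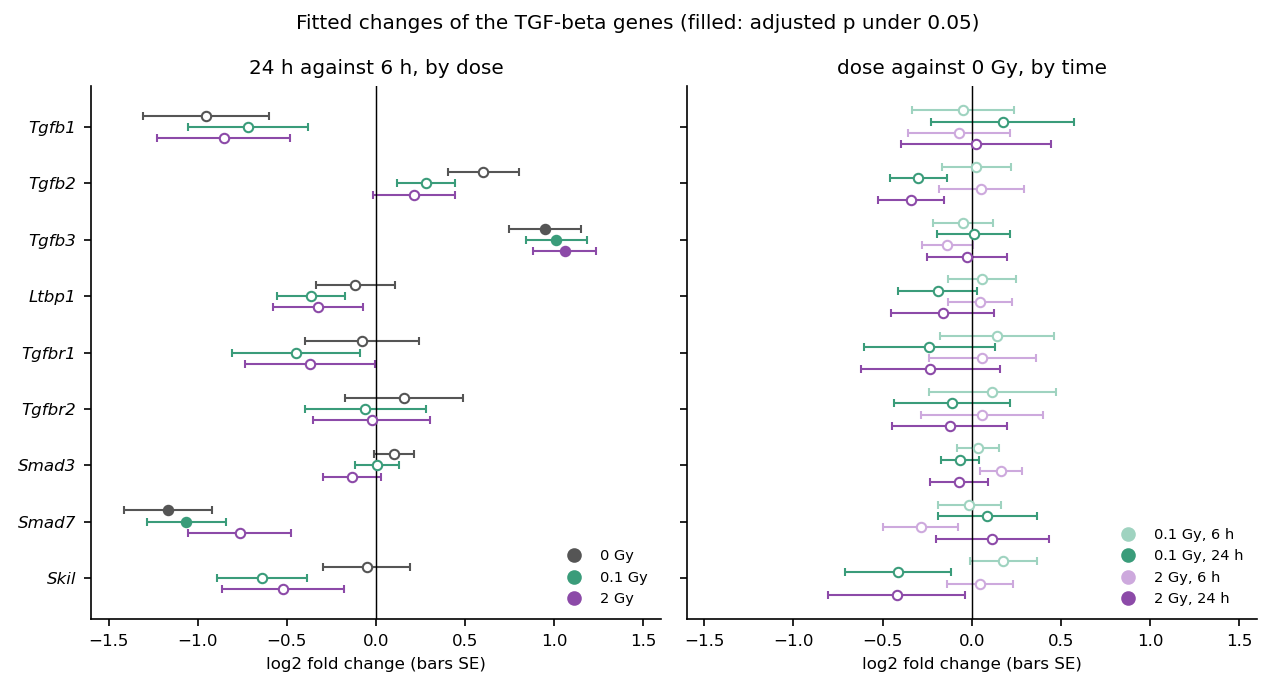
Log2 fold change (x axes, bars of 1 SE on either side) of each member (y axis) between 24 h and 6 h at each dose, left, and between each dose and mock at each time, right, from the fit without a replicate block, with filled points where the adjusted p was under 0.05. Tgfb3 lies at 0.95 to 1.06 and Smad7 at -1.17 to -0.77 between 24 h and 6 h, whereas the members' differences between doses lie between -0.42 and 0.18.

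The other genes of the pathway gave the setting of these changes. Of 71 listed genes 68 could be tested, and at 0 Gy 2 were higher and 6 lower at 24 h, against 6.7% of all genes, with a list median of -0.27 against -0.02 over all genes. At 0.1 Gy 2 were higher and 8 lower, against 9.9%, and at 2 Gy 1 was higher and 7 lower, against 6.95%. With the replicate block these were 7 and 23 at 0.1 Gy, against 25.7% of genes, and 4 and 17 at 2 Gy, against 19.2%. The 3 comparisons use different libraries, which carry the same replicate numbers.

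Among 15 genes known as transcriptional targets of TGF-beta, 4 fell at each dose and none rose, with list medians of -0.57, -0.55 and -0.44, against 6.7%, 9.9% and 6.95% of all genes called. In the blocked fit 9 fell at 0.1 Gy, against 25.7% of genes, and 7 at 2 Gy, against 19.2%. Without the block they were the same 4 genes at the 3 doses. Itga5, the alpha chain of a fibronectin receptor, was 361.9, 338.2, 534.1 and 258.7 CPM at 6 h and 83.18, 97.72, 131.5 and 77.15 CPM at 24 h in mock-irradiated cells, a log2 change of -1.95 ± 0.25 (edgeR adjusted p = 0.00543). Klf10, a zinc finger factor named for its early induction by TGF-beta, was 52.26, 47.09, 57.66 and 39.94 CPM at 6 h and 24.22, 24.88, 23.59 and 24.46 CPM at 24 h, a change of -1.03 ± 0.14 (adjusted p = 0.00656). Itga5 was 258.7 to 599.6 CPM in the 12 libraries at 6 h and 77.15 to 131.5 CPM in the 12 at 24 h, and Klf10 was 39.94 to 62.33 CPM and 16.26 to 27.8 CPM. Bhlhe40, a basic helix-loop-helix repressor, was 115.2 to 221.3 CPM at 6 h and 58.37 to 102.7 CPM at 24 h. For these 3 genes every library at 6 h was above every library at 24 h, over all doses. These genes also respond to serum and other signals, and what lowered them was not tested.

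**Figure D4:**
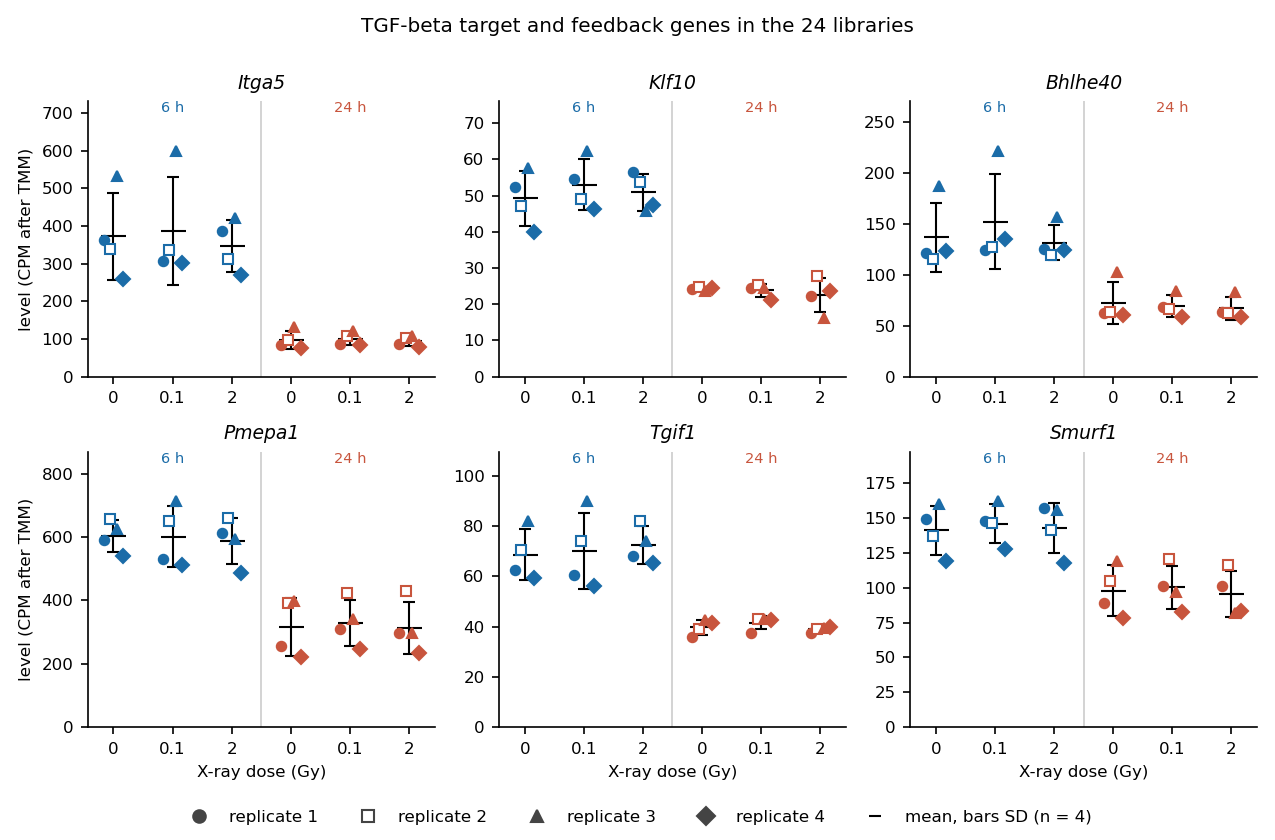
Levels (CPM, y axes) of TGF-beta target and cofactor genes in every library, grouped by X-ray dose in Gy (x axes) and by time, with 1 point per library and the mean and SD of each group of 4. Itga5 lies between 258.7 and 599.6 CPM at 6 h and between 77.15 and 131.5 CPM at 24 h, with no overlap at any dose.

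Among 11 tested Smads and cofactors, Tgif1, a corepressor of Smad complexes, and Pmepa1, which sequesters receptor-regulated Smads, fell at each dose. Tgif1 was 56.37 to 89.91 CPM at 6 h and 35.87 to 43.23 CPM at 24 h (log2 change -0.80 ± 0.14 at 0 Gy, edgeR adjusted p = 0.0146), and Pmepa1 was 487.8 to 712.6 CPM and 221.8 to 428.8 CPM (-0.95 ± 0.21, adjusted p = 0.0292). Smurf1, a ubiquitin ligase that acts with Smad7, fell at 0.1 Gy, by 0.56 ± 0.14 on the log2 scale (edgeR adjusted p = 0.0338). With the block 5 of the 11 were called lower at 0.1 Gy, against 25.7% of all genes, and 5 at 2 Gy, against 19.2%. None of the 12 latency and activation genes nor of the 5 other receptors passed without the block, and with it 3 of the former were called lower at 0.1 Gy and 1 at 2 Gy. Of the 25 genes of the BMP and activin arm, Smad9 (0.94 ± 0.20) and Id2 (0.62 ± 0.15) rose at 0 Gy, Id2 and Id4 (0.65 ± 0.13) at 0.1 Gy, and Id4 (0.72 ± 0.18) at 2 Gy, while the type I receptor gene Acvr1 fell at 0.1 Gy, by 0.88 ± 0.17, and at 2 Gy, by 1.07 ± 0.23 on the log2 scale. With the block 7 genes of this arm were called higher and 6 lower at 0.1 Gy, against 25.7% of all genes, and 4 higher and 4 lower at 2 Gy, against 19.2%.

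The comparisons of a dose with mock exposure ask whether radiation itself changed the pathway. At 6 h none of the 9 members passed the edgeR test after 0.1 Gy or 2 Gy, as was the case for 0 of 16020 and 0 of 15994 genes, that is 0% at each dose and also 0% with the replicate block. By DESeq2, 0% of genes were called at 0.1 Gy and 0.00333% at 2 Gy, and none was a member. At an unadjusted p under 0.05 were 24 and 215 genes, again without a member, and no member had groups that did not overlap, against 0.375% and 1.17% of genes. The members' log2 differences at 6 h were between -0.05 and 0.18 at 0.1 Gy and between -0.29 and 0.16 at 2 Gy. The comparisons of both doses share the mock-irradiated libraries. Smad7 had the difference farthest from 0 after 2 Gy, -0.29 ± 0.21, and was lower than mock in 4 of 4 pairs. Smad3 after 2 Gy (0.16 ± 0.12) and Tgfbr2 after 0.1 Gy (0.12 ± 0.36) were higher than mock in 4 of 4 pairs. Tgfb1 was -0.05 ± 0.29 at 0.1 Gy and -0.07 ± 0.29 at 2 Gy.

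At 24 h none of the 9 members passed the unpaired edgeR test either, as was the case for 0 of 16183 genes after 0.1 Gy (0%) and 0 of 15892 after 2 Gy (0%). By DESeq2, 0% and 0.725% of genes were called, without a member, and at an unadjusted p under 0.05 were 241 and 570 genes, without a member. No member had groups that did not overlap, against 1.11% and 2.95% of genes. The smallest p that 4 against 4 libraries allow in a two-sided exact permutation test is 0.0286. The members' median log2 difference was -0.11 at 0.1 Gy and -0.12 at 2 Gy, against -0.01 and 0.01 over all genes.

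Libraries of the same number deviated together, and with that number as a block 1 of 9 members was called at 0.1 Gy, against 6.84% of genes, and 0 of 9 at 2 Gy, against 13.2%. The called gene was Skil (chr3:31095058-31122577, plus strand), which encodes SnoN, a corepressor that binds Smads. At 24 h it was 184.8, 204.0, 117.2 and 125.4 CPM at 0 Gy, 173.6, 136.5, 72.75 and 93.5 CPM at 0.1 Gy and 172.5, 138.6, 44.25 and 113.6 CPM at 2 Gy. Each irradiated library was below the mock library of the same number, while the groups overlapped widely because replicates 1 and 2 were high at each dose. The log2 difference at 0.1 Gy was -0.41 ± 0.30 unpaired (edgeR adjusted p = 0.943) and -0.46 ± 0.10 with the block (adjusted p = 0.0296). Without replicate 2 the blocked adjusted p was 0.111, and without replicate 4 it was 0.192. At 2 Gy it was -0.42 ± 0.38 unpaired and -0.54 ± 0.19 with the block (adjusted p = 0.0929 in edgeR and 0.0216 in DESeq2).

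Tgfb2 was also lower than mock in 4 of 4 pairs at each dose. It was 53.74, 66.45, 42.70 and 55.30 CPM at 0 Gy, 45.20, 50.66, 42.00 and 40.61 CPM at 0.1 Gy, and 36.31, 49.48, 38.97 and 47.38 CPM at 2 Gy. The groups overlapped, the differences were -0.30 ± 0.16 and -0.34 ± 0.19, and the blocked adjusted p was 0.0796 and 0.0548, and 0.0482 at 2 Gy in DESeq2 with the block. Tgfbr1, the type I receptor gene (chr4:47353222-47414931, plus strand), was lower in 4 of 4 pairs too, at 119.0, 50.14, 63.43 and 87.60 CPM in mock cells, 114.6, 38.54, 52.87 and 68.39 CPM after 0.1 Gy and 114.0, 40.56, 40.67 and 75.90 CPM after 2 Gy. Its differences were -0.24 ± 0.37 and -0.23 ± 0.39, with blocked adjusted p of 0.0796 and 0.0975. Ltbp1 at 0.1 Gy and Tgfbr2 at 2 Gy were the other members lower in 4 of 4 pairs. Tgfb1, by contrast, had differences of 0.17 ± 0.40 and 0.03 ± 0.42, and Tgfb3 of 0.01 ± 0.20 and -0.03 ± 0.22.

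These differences at 24 h moved with the base composition of the transcripts. Over all genes tested, the log2 difference from mock had a Pearson correlation with GC content of 0.587 at 0.1 Gy and 0.559 at 2 Gy, and of -0.341 and -0.373 at 6 h, as a description across genes of the same libraries. Tgfbr1 and Skil had the lowest GC content of the members, 41.0% each, and Tgfb2 had 46.9%, against 47.2% for the median gene. The remaining 6 had 49.6% to 56.9%. When the blocked fit also corrected for the GC content and length of each gene, the difference of Skil at 0.1 Gy was -0.13 (adjusted p = 0.470) and at 2 Gy -0.19, that of Tgfbr1 -0.01 and 0.01, and that of Tgfb2 -0.19 and -0.21, and no member was called.

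Of the other 68 pathway genes none passed the unpaired test in a dose comparison at either time. With the replicate block none passed at 6 h. At 24 h 1 was higher and 4 were lower after 0.1 Gy, against 6.84% of all genes, and 4 were higher and 6 lower after 2 Gy, against 13.2%. These shares lie near those of all genes, so the counts are no result about the pathway, and single genes are given as values. Id3, which encodes an inhibitor of helix-loop-helix factors and is a known target of BMP signals, was 212.6, 158.7, 359.5 and 202.1 CPM in mock cells at 24 h, 258.4, 331.5, 457.8 and 327.3 CPM after 0.1 Gy and 315.9, 328.9, 615.2 and 274.0 CPM after 2 Gy. It was above mock in 4 of 4 pairs at each dose, while the groups overlapped through the high replicate 3 of the mock cells. Its blocked difference was 0.58 ± 0.12 (edgeR adjusted p = 0.0262) and 0.71 ± 0.11 (adjusted p = 0.0106). With the GC and length correction it was 0.37 (adjusted p = 0.0257) and 0.46 (adjusted p = 0.0255), the only one of the 68 genes called under that correction that had also been called with the block alone.

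The others called with the block at 2 Gy were Id1 (0.64 ± 0.11), Tagln (0.56 ± 0.16) and Cdkn2b (0.42 ± 0.10) on the higher side. On the lower side were the activin receptor gene Acvr2a (-0.52 ± 0.10), the BMP receptor gene Bmpr2 (-0.50 ± 0.10), the integrin genes Itgav (-0.44 ± 0.10) and Itgb8 (-0.42 ± 0.11), whose products release the latent ligand, the ubiquitin ligase gene Trim33 (-0.42 ± 0.10) and 1 further BMP receptor gene. After 0.1 Gy the lower ones were Itgb8 (-0.48 ± 0.12), Trim33 (-0.43 ± 0.11), Bmpr2 (-0.60 ± 0.12) and Acvr2a (-0.53 ± 0.13). None of these was called with the GC and length correction, where their differences were between -0.26 and 0.40. The same blocked fits called 6.84% of all genes after 0.1 Gy and 13.2% after 2 Gy. In them 2 of 12 microglial markers were called higher and 0 lower after 0.1 Gy, and 2 higher and 1 lower after 2 Gy. Of the other markers 2 of 12 for astrocytes were called higher after 2 Gy, and 1 for neurons was called lower and 1 for the oligodendrocyte lineage higher after 0.1 Gy. The part of any of these cells in the results was not tested.

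The interaction of 2 Gy and time asks whether the difference from mock changed between 6 h and 24 h. No member was called, as was the case for 0 of 16866 genes (0%). At an unadjusted p under 0.05 were 827 genes without a member, and DESeq2 called 0.0125% of genes, none of them a member. With the block 0 of 9 members were called, against 6.78% of genes. The members' estimates were between -0.46 (Skil, ± 0.45) and 0.41 (Smad7, ± 0.39). Id3 (1.02 ± 0.21), Id1 (0.82 ± 0.20) and the BMP antagonist gene Nog (0.61 ± 0.13) were called with the block, with edgeR adjusted p of 0.0356, 0.0405 and 0.0356, and Id3 also with the GC and length correction (adjusted p = 0.0369). In the same blocked fit 2 of 12 microglial markers and 1 of the oligodendrocyte lineage were called higher, and their part in these results was not tested.

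The genes whose log2 CPM followed a member most closely over the 24 libraries are given as a description, since the libraries share times and replicate numbers. For Tgfbr2 they were Tlr7 (Pearson r = 0.992), a receptor gene of macrophages and microglia, and Ikzf1 (r = 0.989), a transcription factor gene of blood cells. Tgfb1 was followed by Tnfrsf1b (r = 0.969) and Irak2 (r = 0.966), and Tgfbr1 by Inpp4b (r = 0.964) and Rab8b (r = 0.959). Smad7 was followed by Bdkrb2, a bradykinin receptor gene (r = 0.973), and the cytokine gene Lif (r = 0.968), and Ltbp1 by the matrix gene Tnc (r = 0.964) and Dlg3 (r = 0.941). Tgfb3 was followed by Dele1 (r = 0.967) and Sorbs3 (r = 0.954), Skil by Scaf11 (r = 0.978) and Lin7c (r = 0.973), and Tgfb2 by A730020M07Rik (r = 0.937) and Hspa12a (r = 0.916). Smad3, the member that varied least between groups, had the weakest likeness, with Dlg5 (r = 0.845) and Ptpn14 (r = 0.833). In the other pathway lists, the highest mean levels per kilobase were those of Thbs1 (533 CPM per kilobase), an activator of the latent complex, and Itgb5 (139), of Pmepa1 (93.4) and Ski (63.9) among the Smads and cofactors, of Acta2 (2496) and Tagln (445) among the targets, of Id3 (150) and Id2 (124) in the BMP and activin arm, and of Acvr1b and Bambi (6.91 each) among the other receptors.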

How the data were processed

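RNA of 24 libraries was measured by poly(A) mRNA sequencing, and the sequencing company trimmed, mapped and counted the reads. The files hold the read counts of single libraries as the authors deposited them, neither normalized nor pooled. The build is mm10 (GRCm38) per the labels, and 49056 of 49315 identifiers are in GENCODE M21. The aligner, the counting tool and the use of strand are not given in the sources used here, so that genes that overlap on the other strand are uncertain.

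Groups and replicate numbers were taken from the labels. No 2 libraries held the same values (at least 22886 genes differed), and each was counted as 1 replicate. The study's text speaks of new isolations for each experiment, but the labels tie no number to a culture, so the p-values measure the spread between these libraries. The 9 members and the gene lists, written from general knowledge, were chosen with earlier results of these data known.

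The counts were fitted in R 4.3.3 with edgeR 4.0.16 (TMM, filterByExpr, quasi-likelihood test, Benjamini-Hochberg adjustment over all genes tested, adjusted p under 0.05). Each fit held only the groups it compared. The standard error is the log2 fold change divided by the square root of F. CPM are TMM-scaled, and log2 CPM used a prior count of 2. Libraries of the same number deviated together from their group means (correlation over genes 0.54 to 0.927 in the dose comparisons, 0.526 to 0.914 in the interaction, 0.385 to 0.845 and 0.255 to 0.828 between times at 0.1 and 2 Gy), so a replicate block is given there. In mock-irradiated cells between times it was as low as 0.062, below the limit of 0.1 used. There the numbers were not taken as pairs, although the labels do not say whether a number stands for the same culture at every dose. Blocked values at 0 Gy are given with that limit.

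The alternatives were DESeq2 1.42.0, its size factors in edgeR, no filter on low counts, the replicate number as a block, a joint fit of the 24 libraries, a minimum absolute log2 fold change of 1, the block together with spline offsets (5 degrees of freedom) for gene length and GC content, and leaving out single libraries. Chosen after seeing the data were DESeq2 with the block, the GC correction alone, omission of each number from the blocked fit, omission of replicate 2 throughout, and the comparisons of 24 h with 6 h at 0.1 and 2 Gy. The scripts were tested on simulated data.

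Genes named besides the members were the 2 highest per length in each list, at most the 4 with the smallest p per list and comparison among those called with or without the block, and the 2 with the highest correlation to each member. Promoters come from a set of RefSeq promoters (GRCm38.p6) in which 6 of the 9 members matched. Tgfb3, Smad7 and Skil had no entry in this set, which is no statement about RefSeq as a whole. Values of 1 gene of the wider lists are not reported here.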

Additional observations from a re-analysis of the deposited data

Results flagged for a closer look

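In groups of 4 libraries, a library was singled out where its gap to the nearest other exceeded Dixon's 95% limit for the group's range, which chance gives in about 1 in 20 groups. Among 9 members in 6 groups each there were 2 such values, no more than chance gives, both in replicate 2. Tgfb1 at 0 Gy and 6 h was 36.91 CPM in replicate 2 and 73.83 to 79.19 CPM in the other 3 libraries, a gap of 0.873 of the range. Smad3 at 0.1 Gy and 6 h was 90.3 CPM in replicate 2 and 68.15 to 69.81 CPM in the others, a gap of 0.925 of the range. In these libraries the summed microglial markers were 282.7 and 291.1 CPM, the lowest of their groups, and their part in the gaps was not tested.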

How the results depend on the processing

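Each member had 324 counts or more in every library, and 4 libraries per group, with replicate 2 apart, set the precision. The results for single genes under an alternative or without a library include the untested levels without TMM scaling. Of these results 1467 were labelled the same, by the threshold for differences and by the SD for levels. In 46 a difference passed the threshold and in 15 it lost it. In 2 an uncalled difference changed sign by at least its SE, and 0 called results reversed. Differences that had not passed did cross 0, such as that of Smad7 after 2 Gy at 24 h, from -0.12 to 0.39. Smad7 also passed there in the blocked edgeR fit that left out replicate 3, with an adjusted p of 0.00391.

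Members called at an adjusted p under 0.05. With the replicate block they were 1 (0.1 Gy at 24 h), 4 (24 h against 6 h at 0 Gy, where the numbers were not taken as pairs), 5 (at 0.1 Gy) and 3 (at 2 Gy), and with the block in DESeq2 2 (2 Gy at 24 h, Tgfb2 and Skil), 1 (0.1 Gy at 24 h), 4, 5 and 4. The block with the GC correction gave 6, 7 and 4 between times at the 3 doses. Tgfb1, Tgfb3, Smad7 and Skil were called at each dose, Tgfb2 and Tgfbr1 at 0 and 0.1 Gy, and Ltbp1 at 0.1 Gy (-0.34, edgeR adjusted p = 0.0309). More of all genes were called in these fits too, as given in the next paragraph, so the counts are no result about the members. Without the GC correction, 15887, 16250 and 16002 genes were tested between times at 0, 0.1 and 2 Gy. A minimum fold change left 1 at 0 Gy, and leaving out replicate 2 gave 3, 3 and 2 at the 3 doses, Tgfb1 being the one gained at 0 and 0.1 Gy and Smad7 at 2 Gy. The blocked fit gave 3 at 2 Gy and 24 h without replicate 3 (Tgfb2, Smad7 and Skil), and 1 and 2 at 0.1 Gy and 24 h without replicates 1 and 3. In the interaction it gave 2 without replicate 3. The counts of all genes in these fits rose as well and are given in the next paragraph, so these counts are no result about the members. Leaving out single libraries gave 0 members in the dose comparisons and the interaction, 0 to 3 between times at 0 Gy, 1 to 2 at 0.1 Gy and 0 to 2 at 2 Gy.

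All genes called. After 2 Gy at 6 h there were 1 by DESeq2, 115 with the block and GC correction, 66 with the block in DESeq2 and 129 in the blocked fit without replicate 4. After 2 Gy at 24 h there were 103, 2100 (block), 108 (all 24 libraries), 564 (block and GC), 2320 (block in DESeq2), and 143, 69, 5291 and 245 in the blocked fit without replicates 1 to 4. After 0.1 Gy there were 13 at 6 h in the blocked fit without replicate 4, and at 24 h 1107 (block), 298 (block and GC), 1766 (block in DESeq2), and 1176, 21, 3728 and 16 without replicates 1 to 4. The interaction gave 4 (DESeq2), 1143 (block), 402 (block and GC), 2484 (block in DESeq2), and 3951 and 138 in the blocked fit without replicates 3 and 4. Between times, DESeq2 gave 1999, 2568 and 2120 at 0, 0.1 and 2 Gy, the block 2428, 4181 and 3072, the block with GC 4219, 5873 and 4598, the block in DESeq2 3092, 4299 and 3442, and a minimum fold change 564, 624 and 577. All 24 libraries in one fit gave 2488 at 0 Gy and 2543 at 2 Gy, and at 2 Gy no filter gave 730 and the GC correction alone 1820. Single libraries left out gave 0 genes in the dose comparisons and the interaction, and 170 to 2999, 534 to 1890 and 220 to 1855 between times. The cause of these differences was not tested.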
